A study of Mus musculus with 2 samples.

Results

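Unspliced genomic models are stretches of a gene that long reads crossed without a splice junction and that match no annotated transcript. TALON, a program that assigns each long read to an annotated transcript or to a model of its own, listed them with 1 exon and the class Genomic. Members were selected on their measured counts, since each had to hold at least 5 reads in its library. Of the 180226 models listed over both libraries, 1968 met this rule, 1345 in replicate 1 and 623 in replicate 2. Before the count minimum, 19276 models were unspliced and genomic. An identifier of such a model belongs to 1 library, so a locus present in both counts once in each. At the edge of the rule, 306 models of replicate 1 and 160 of replicate 2 held exactly 5 reads, while 449 and 265 models just outside it held 4.

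Total RNA of adrenal glands from wild-type C57BL/6J mice was sequenced as long reads in 2 libraries, replicates 1 and 2 of a single group, with no treatment named. The descriptions name females, the sex field was left uncollected and the age is unknown. The replicates are different biosamples under the same donor entry, and nothing says whether tissue was pooled. Long-read RNA-seq reads a cDNA from end to end, so that 1 read shows which exons were joined or whether an intron was kept. Replicate 1 held 810239 reads and replicate 2 held 587861. The 6 cortex markers held between 244 and 25459 reads in replicate 1 and between 1104 and 18259 in replicate 2. The medulla markers Th, Dbh, Pnmt, Chga and Chgb held between 38 and 2061 and between 48 and 2984. Neither set moved one way, since Cyp11a1, Cyp21a1, Hsd3b1, Th, Pnmt and Chga had more reads in replicate 1 and Cyp11b1, Star, Nr5a1, Dbh and Chgb more in replicate 2. All models had median lengths of 1543 nt (replicate 1) and 2851 nt (replicate 2), a difference that runs through the results that follow. With 1 group, no conditions could be compared, and a difference between the replicates is a difference between these 2 libraries.

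Most mammalian genes are transcribed with introns, which the spliceosome removes before the messenger RNA leaves the nucleus. The last exon is often the longest and carries the 3′ untranslated region, and a poly(A) tail is added shortly after a hexamer, most often AATAAA or ATTAAA in the DNA. Long-read libraries commonly start cDNA synthesis from a primer of T bases, which can also pair with a run of A inside an RNA. In the adrenal gland, the cortex turns cholesterol into steroid hormones, and chromaffin cells of the medulla release adrenaline and noradrenaline.

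Bases around the 3′ ends of members are shown for 2 sets of ends. The first set shows ends with an A-rich stretch right after them. The lines below give the last 10 bases of the model in lower case and the 20 bases after its end in capitals, 5′ to 3′ on the strand of the model, for 9 of the 10 such ends with most reads among the members named by rule.
Gm20659, replicate 1, chr11:101972939-101972968, plus strand: tcattctgggCCAAAAAAAAAAAAAAAAAA
Star, replicate 2, chr8:25814463-25814492, plus strand: gctcaaaaacATAAAAAAATAAAAATGACA
Cyp11b1, replicates 1 and 2, chr15:74834567-74834596, minus strand: tcacaaacatCTAAATAAATAGCAAAGAAA
Kcnk3, replicate 1, chr5:30623468-30623497, plus strand: ctatgcagttATGGAAGAAAAAAAAAAAAA
Kcnk3, replicate 2, chr5:30623526-30623555, plus strand: tccccagaggGCAAGATAAAAAAGAAAGAA
Macrod1, replicate 1, chr19:7198924-7198953, plus strand: aaccacacacAAAAAAAAAAAAAAAAAAAA
Irak4, replicate 1, chr15:94579002-94579031, plus strand: aaacaaaaacAAAACACAAAACCAAAAAAA
Tbx3os1, replicate 1, chr5:119671213-119671242, minus strand: aatcgctttcCTAAAAATAATAAATTAAAA
Plcg1, replicate 1, chr2:160769945-160769974, plus strand: tgccaagtagTCAAAAAAAAAAAAAAAAAA
These windows hold between 13 and 20 A among the 20 bases after the end.

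The second set shows ends at an annotated 3′ end. The lines below give the 30 bases up to the end for the 6 named members with most reads where these bases hold AATAAA or ATTAAA, with that hexamer in capitals. The Hsd3b1 model is only 3 nt long, so the other bases of its line, hexamer included, lie in the gene upstream of the model.
Gnb1, replicate 1, chr4:155559238-155559267, plus strand: taagatgtAATAAAgcagtttgacatgagg
Hsd3b1, replicates 1 and 2, chr3:98852194-98852223, minus strand: aaaaacagcAATAAAtattgtaatgcctta
Dusp3, replicate 1, chr11:101971143-101971172, minus strand: gtaaccaaAATAAAtgtcttacattacaaa
Tacc1, replicates 1 and 2, chr8:25154552-25154581, minus strand: cctgAATAAAaaccgtttaccactgttgca
Abhd2, replicate 1, chr7:79365479-79365508, plus strand: cttaaaaaATTAAAgacaaaaaaatgtaaa
Sdc3, replicates 1 and 2, chr4:130826284-130826313, plus strand: atttataagaggaAATAAAattaagctgaa
Coordinates are on mm10, counted from 1, and the bases were read from GENCODE M21 transcript sequences. In these 6 the hexamer stood between 11 and 20 bases before the end.

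Members took 24061 reads of replicate 1, 2.97% of the library (95% Clopper-Pearson interval 2.93 to 3.01), and 8350 reads of replicate 2, 1.42% (1.39 to 1.45). Intervals here and below cover counting error only. Most members held few reads, with a median of 8 in replicate 1 and 7 in replicate 2. At least 100 reads fell on 28 members of replicate 1 and 7 of replicate 2, which held 32.6% and 21.3% of the member reads. Members of replicate 1 had a median length of 1523 nt (quartiles 959 and 2186), those of replicate 2 one of 3001 nt. Members therefore differed in length between the libraries as all models did.

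**Figure D1:**
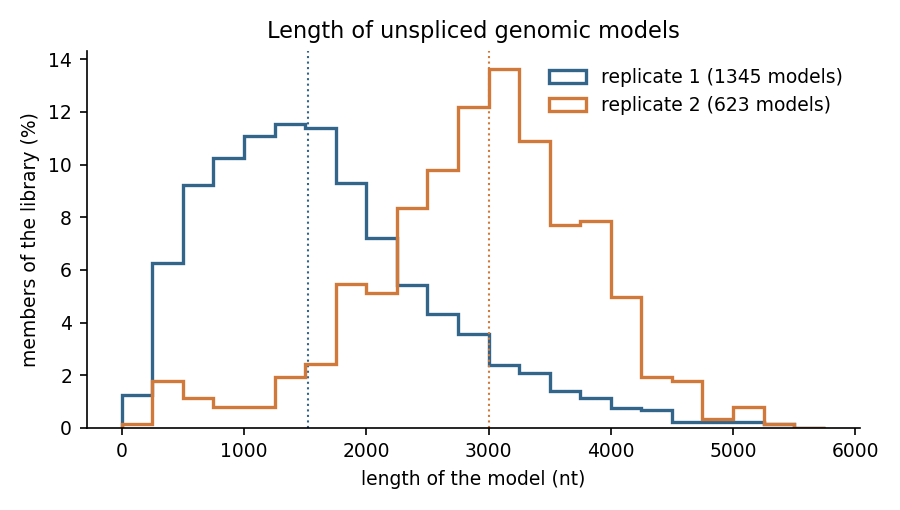
Share of members (y axis, % of the members of a library) by length of the model (x axis, nt) in each library, with dotted lines at the medians. Replicate 1 centres on 1523 nt and replicate 2 on 3001 nt.

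Most member reads lay wholly inside the last exon of an annotated transcript. Last exon members held 66.8% of member reads in replicate 1 (66.2 to 67.4) and 60.3% in replicate 2 (59.3 to 61.4), a mean of 63.5 ± 4.55% (SD, n = 2). Members that touched exons without lying inside a single one, here called exon and intron, held 13.9% (13.5 to 14.4) and 28.7% (27.7 to 29.6), a mean of 21.3 ± 10.4%. Members past the annotated end of the gene held 8.10% (7.76 to 8.46) and 5.44% (4.96 to 5.95). Members that touched no exon held 7.06% (6.74 to 7.39) and 2.90% (2.55 to 3.28). Each of these intervals in replicate 1 lay apart from that in replicate 2, while the last exon came first in both libraries. Members in genes with no annotated transcript held 1.58% and 1.70%, those in another exon 1.40% and 0.347%, and those ahead of the gene start 1.19% and 0.647%. No member lay wholly inside a gene whose annotated transcripts all have a single exon. Members that passed either end of such a gene would be counted in the classes past the gene end or ahead of its start.

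**Figure D2:**
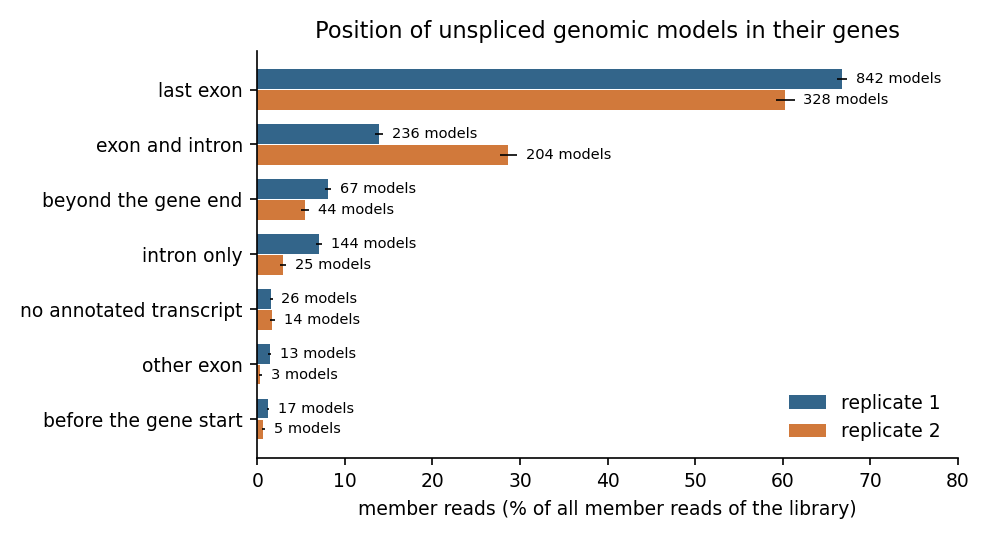
Share of member reads (x axis, % of member reads of the library) by position in the gene (y axis) in replicates 1 and 2, with 95% Clopper-Pearson intervals of the share and the number of models beside each bar. Last exon members lead in both libraries, at 66.8% and 60.3%.

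The last exon class counted 842 models in replicate 1 and 328 in replicate 2. Of these, 697 of 842 (82.8%) and 264 of 328 (80.5%) ended within 50 nt of an annotated 3′ end. They lay after the last coding base, hence wholly in the 3′ untranslated region, in 77.7% and 70.4% of cases, and touched coding bases in 17.8% and 25.6%. Their host genes had long last exons, with median longest last exons of 2891 nt (replicate 1) and 4173 nt (replicate 2). Over all genes with at least 10 reads and an intron the medians were 1496 nt and 1877 nt. A member of this class has to fit inside a last exon, and the members had median lengths of 1336 nt and 2856.5 nt. Part of the difference in last exon length is thus set by the class itself.

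Gnb1, a beta subunit of heterotrimeric G proteins, held the member with most reads. Its last exon model (ENSMUSG00000029064.15, chr4:155557653-155559267) counted 1378 of the 1387 reads of the gene in replicate 1. Replicate 2 had 40 Gnb1 reads, of which 29 were spliced and a single read was unspliced and genomic. The locus was thus a member in replicate 1 and near absent in replicate 2.

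Dusp3, a dual-specificity phosphatase, had 655 of 659 reads of replicate 1 on a last exon model (chr11:101971143-101972948) and 20 of 47 reads of replicate 2 on members. Tacc1, a protein of the centrosome and microtubules, had 577 of 605 reads of replicate 1 on its last exon model (chr8:25154552-25158031). In replicate 2 its last exon model held 86 of 309 reads, and 217 reads were spliced. Abhd2, a lipid hydrolase, had 250 of 263 reads on members in replicate 1 and 25 of 69 in replicate 2. In these genes the unspliced last exon stood for nearly all reads of replicate 1 and for a smaller part in replicate 2.

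Further last exon members were present in both libraries. Sdc3, the heparan sulfate proteoglycan syndecan-3, had 51 of 88 reads of replicate 1 and 247 of 283 of replicate 2 on members, and its spliced reads numbered 36 and 35. Fosl2, a transcription factor of the AP-1 family, had 32 of 32 reads in replicate 1 and 122 of 124 in replicate 2 on members. Scd2, a stearoyl-CoA desaturase, had 139 of 147 reads in replicate 1 and 131 of 328 in replicate 2 on members. The unspliced genomic reads of Scd2 came to 197 ± 36.3 CPM (counts scaled to library size; SD, n = 2), while its spliced reads numbered 8 in replicate 1 and 197 in replicate 2. Ywhag, the gamma form of 14-3-3 proteins, had 48 of 54 and 50 of 356 reads on members, beside 5 and 305 spliced reads. For Scd2 and Ywhag the counts of member reads were near equal in both libraries and those of spliced reads were not. Scaled to library size, unspliced genomic reads were higher in replicate 2, at 171.6 and 222.8 CPM for Scd2 and 60.48 and 86.76 CPM for Ywhag. Both genes were among those named for many reads in each library.

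Hsd3b1, the steroid dehydrogenase that makes progesterone from pregnenolone, held the most member reads of replicate 2 with a model of 3 nt. The model (ENSMUSG00000027871.16, chr3:98852194-98852196) counted 600 reads in replicate 1 and 696 in replicate 2. Its first and last base are the 3′ ends of 2 annotated transcripts of the gene, so its coordinates cannot describe the length of the reads that it counts. In replicate 1, 10 members were shorter than 50 nt, and in replicate 2 this was the sole such member, with 8.34% of all member reads. Without models under 50 nt, last exon members held 65.9% and 56.7% of member reads. Hsd3b1 and the related Hsd3b6, like Cyp11b1 and Cyp11b2 or Cyp21a1 and its pseudogene, are close copies, and their split of reads is uncertain.

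Kcnk3 carried members in 2 stretches of its last exon that met base to base. Kcnk3 is a potassium leak channel that helps to set the resting potential of the aldosterone-making cells. In replicate 1 a model of 189 reads ran from chr5:30621891 to 30623477 and a model of 212 reads from 30623477 to the annotated end at 30625271. In replicate 2 a model of 70 reads ran from 30620712 across a whole intron to 30623535, and a model of 105 reads from there to 30625271. The inner ends lay 58 nt apart and both preceded A-rich stretches, printed above, while the outer end was the same base. Members held 411 of 441 Kcnk3 reads in replicate 1 and 189 of 216 in replicate 2, and spliced reads numbered 26 and 23. Inside introns of the gene lay a further member of 10 reads in replicate 1 and 2 members of 7 reads each in replicate 2.

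The exon and intron class counted 236 models in replicate 1 and 204 in replicate 2, of which 4 in each library held no intronic base. At least 1 whole annotated intron lay inside 100 of 236 (42.4%) and 103 of 204 (50.5%) of them, and at least 2 inside 19.5% and 31.4%. The median intronic part was 963.5 nt for replicate 1 members and 2302 nt for replicate 2 members. Coding bases were touched in 69.5% and 70.6%, and the 3′ end lay within 50 nt of an annotated end in 34.7% and 31.4%.

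Star, the protein that brings cholesterol to the inner mitochondrial membrane, held the largest member of this class in replicate 2. That model (ENSMUSG00000031574.8, chr8:25811890-25814472) counted 341 of 13750 Star reads and had 883 intronic nt, with its end at -1510 nt from the nearest annotated end, hence upstream of it, and before 15 A in 20 bases. Nearer the start of the gene, a model of 3956 nt across 5 whole introns held 52 reads in replicate 1 and a model of 3060 nt across 4 held 34 reads in replicate 2, both from base 25808474. Replicate 1 also had a last exon member of 126 reads, which 11 unspliced genomic reads of replicate 2 overlapped. In all, Star had 2 members in replicate 1 and 3 in replicate 2. Members thus made up 2.28% of Star reads in replicate 1 and 2.81% in replicate 2, beside 7112 and 13364 spliced reads.

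Mettl23, a methyltransferase gene that overlaps the splicing factor gene Srsf2 on the other strand, had 410 of 457 reads of replicate 1 on a model across 3 whole introns (chr11:116847311-116850961). Replicate 2 had 5 Mettl23 reads in all. Pam, the enzyme that amidates peptide hormones, had 266 of 403 reads of replicate 1 on a model with 3175 intronic nt and no coding base, and no member in replicate 2 among 180 reads. Gramd1b, a carrier of cholesterol between membranes, had 86 of 139 and 93 of 184 reads on members. Fads2, a fatty acid desaturase, had 35 of 804 and 67 of 4455. Mettl23 and Pam were thus members in replicate 1 alone, and Gramd1b and Fads2 in both libraries.

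Members that touched no exon numbered 144 in replicate 1 and 25 in replicate 2. Abi1, a regulator of actin, had 53 of 79 reads of replicate 1 on an intronic model (chr2:23012807-23014676) and 36 of 65 reads of replicate 2 on a longer model with the same first base. Plcg1, a phospholipase C, had 36 of 41 and 33 of 62 reads on intronic models of 4173 and 3663 nt. Both Plcg1 ends preceded A-rich stretches, with 18 and 14 A in the next 20 bases. Irak4, a kinase of innate immune signalling, had 95 of 111 reads on an intronic model in replicate 1 and no member in replicate 2. An exon of a gene on the other strand lay inside 47 of 144 (32.6%) and 7 of 25 (28.0%) of these members. Among them were both Plcg1 models, over an exon of Zhx3, and the Irak4 model, over an exon of Twf1. Unspliced models on the other strand held 12 and 18 reads opposite the Plcg1 models and 67 opposite the Irak4 model.

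Members past the annotated end of their gene numbered 67 and 44. They passed that end by medians of 1095 nt (replicate 1) and 1169.5 nt (replicate 2), and by at most 3568 nt in each. Most began in an annotated last exon, in 77.6% (65.8 to 86.9) and 81.8% (67.3 to 91.8) of cases. They reached an exon of a gene on the other strand in 59.7% (47.0 to 71.5) and 52.3% (36.7 to 67.5), and an exon of another gene on the same strand in 2.99% and 2.27%. Among all members, 19.6% and 20.1% touched an exon of a gene on the other strand.

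St13, a cofactor of the chaperone Hsp70, had 174 of 297 reads of replicate 1 on a model that passed the gene end by 1679 nt, and 5 of 260 reads of replicate 2 on members. Sparc, a protein of the extracellular matrix, had 79 of 874 and 29 of 223 reads on members. Tgoln1, a protein of the trans-Golgi network, had 40 of 64 and 26 of 383. Fdx1, the electron donor of the mitochondrial steroid hydroxylases, had a member of 40 reads in replicate 1 that stopped at the annotated end and one of 42 reads in replicate 2 that passed it by 346 nt, both from base 51945844 of chromosome 9. Sparc, Tgoln1 and Fdx1 had members in both libraries.

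Members ahead of the gene start, 17 and 5 models, had a median of 100% of the reads of their gene in each library. Gm26724 had 56 of 56 reads of replicate 1 on such a model, and Olfr1033, an olfactory receptor gene, had 13 of 13 reads of replicate 1 and 26 of 26 of replicate 2. Members in an exon other than the last numbered 13 and 3. Among them Xist, the noncoding RNA of X inactivation, had 148 reads in replicate 1 on a stretch of 849 nt, and all Xist reads numbered 154 and 7. Meg3, an imprinted noncoding RNA, had 21 of 78 reads of replicate 1 on such a member.

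Many members lay opposite another unspliced model. An unspliced model on the other strand covered at least 50% of the member in 37.0% (34.4 to 39.6) of replicate 1 members and 35.0% (31.3 to 38.9) of replicate 2 members. The same held for the last exon of 7.15% (6.56 to 7.76) of annotated spliced models with at least 5 reads in replicate 1 and 8.0% (7.37 to 8.66) in replicate 2. By class, the share in replicate 1 was highest for members that touched no exon, at 64.6%, and 53.7% for members past the gene end, against 32.8% in the last exon. In replicate 2 these shares were 56.0%, 50% and 41.5%.

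In 256 members of replicate 1 (19.0%) and 57 of replicate 2 (9.15%), a model on the other strand had the same first and last base. Tacc1 had 577 reads and its opposite model 576. Pam had 266 and 250, St13 174 and 167, and Ttyh2, a membrane protein of the tweety family, 234 and 186. Macrod1 and Otub1, an ADP-ribose hydrolase and a deubiquitinase that converge on chromosome 19, had 172 and 120 reads on opposite models from 7195529 to 7198933. Dusp3 and Gm20659, which share the base 101972948 of chromosome 11, had 655 and 657 reads on models of unequal length. Other pairs were unequal, as in Tmem250-ps, annotated as a noncoding RNA, with 243 reads against 1063 on its exact opposite. Gnb1, with 1378 member reads, faced 1578 reads on the other strand, none of them on a model with the same ends. All these counts are those of replicate 1.

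Among members with at least 20 reads and such an exact opposite, the opposite model held a median of 100.8 reads per 100 member reads in replicate 1 (quartiles 76.4 and 134.7, 82 members). In replicate 2 the median was 29.4 per 100 (quartiles 12.1 and 40.8, 7 members). How the strand of a read was set is not given in the sources used here, so reads of a member and of its opposite cannot be told apart by origin.

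**Figure D3:**
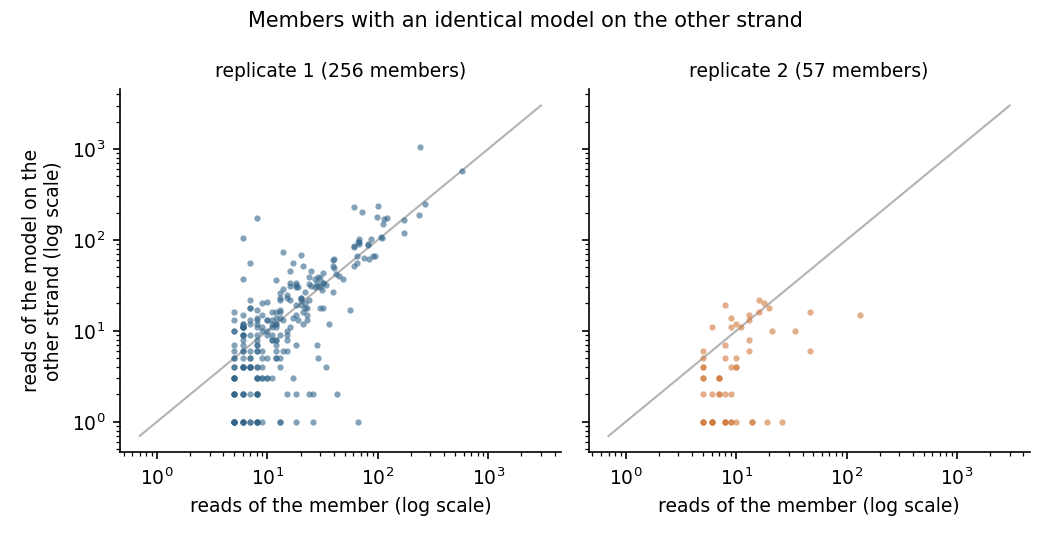
Reads of a member (x axis, log scale) against reads of the model with the same first and last base on the other strand (y axis, log scale), 1 point per member, with a line where both are equal. In replicate 1 many of the points with most reads lie near that line, but Tmem250-ps, with 243 reads against 1063, lies well above it. In replicate 2 most points lie below it.

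The bases after the end could be read where an annotated exon on either strand covered them. This held for 365 of 1345 members of replicate 1 and 137 of 623 of replicate 2. An end was called A-rich with at least 12 A in the 20 bases after it, counted on the strand of the model. Most ends in introns or past genes could not be read. Of the members read, 97 (26.6%, 22.1 to 31.4) and 45 (32.8%, 25.1 to 41.4) had an A-rich end. For annotated spliced models with at least 5 reads the shares were 97 of 1590 (6.10%) and 119 of 1478 (8.05%). Annotated models end at annotated ends, whereas many of the members read end elsewhere. Among members within 50 nt of an annotated end, 19 of 130 (14.6%, 9.04 to 21.9) and 8 of 39 (20.5%, 9.30 to 36.5) had an A-rich end. Over all positions in the last exons of the host genes, 1.25% were followed by such a stretch.

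The ends of last exon members away from annotated ends can all be read, because the exon goes on past them. There were 145 such members in replicate 1 and 64 in replicate 2. An A-rich stretch followed 48 of 145 (33.1%, 25.5 to 41.4) and 19 of 64 (29.7%, 18.9 to 42.4). Cyp11b1, the 11-beta-hydroxylase of glucocorticoid synthesis, is an example, with the same end in both libraries, at -462 nt from the annotated end, and 212 and 52 reads. Its end was close to the limit. The 13 A after it met the minimum of 12, but neither the stricter minimum of 14 A nor that of 6 A in a row. Unspliced antisense models with at least 5 reads, which are not members, had A-rich ends in 152 of 326 (46.6%) and 34 of 125 (27.2%).

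The hexamers AATAAA and ATTAAA, searched on the strand of the model in the 50 bases up to its end (past its first base where the model is shorter), were present in most members at annotated ends. They were found in 85.6% (83.0 to 88.0) and 87.8% (83.8 to 91.2) of members that ended within 50 nt of an annotated end, as in Gnb1 and Tacc1 above. Last exon members that ended elsewhere had a hexamer in 30.3% (23.0 to 38.5) and 39.1% (27.1 to 52.1). Annotated spliced models had a hexamer in 76.8% and 77.7%, unspliced antisense models in 7.32% and 3.33%, and 4.67% of all 50-base windows of host last exons held a hexamer.

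**Figure D4:**
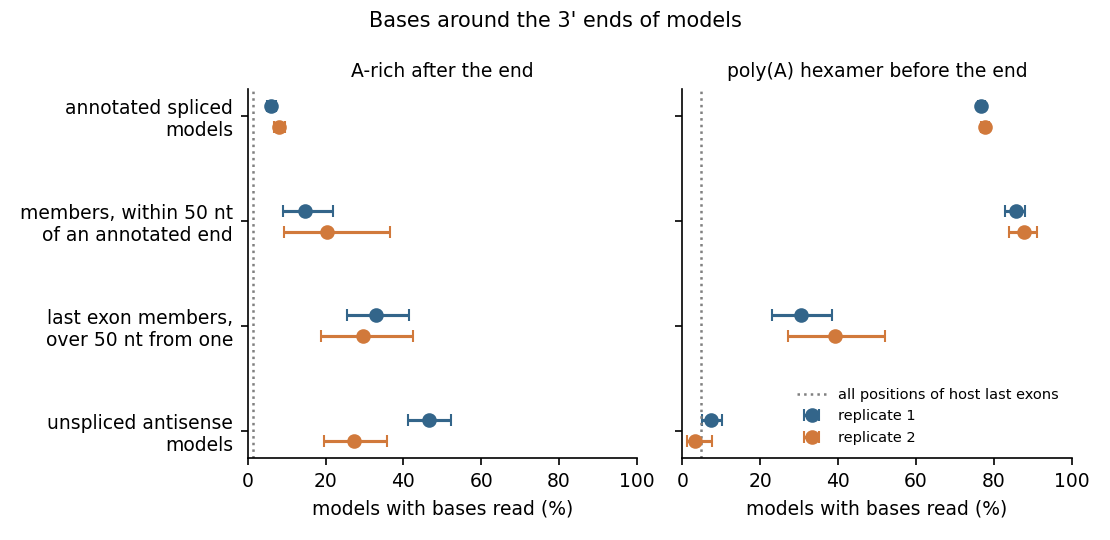
Share of models (x axis, % of models with bases read) with at least 12 A in the 20 bases after the end (left) and with AATAAA or ATTAAA in the 50 bases up to the end (right), by kind of model (y axis), with 95% Clopper-Pearson intervals. Members at annotated ends have hexamers in 85.6% and 87.8%, and last exon members ending elsewhere are A-rich in 33.1% and 29.7%.

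The counts of the other library did not choose a member, so members were looked up there. An overlapping unspliced genomic model of the same gene was found for 733 of 1319 (55.6%, 52.8 to 58.3) replicate 1 members in annotated genes and for 482 of 609 (79.1%, 75.7 to 82.3) replicate 2 members. Annotated models with at least 5 reads were found again in 86.0% (85.2 to 86.8) and 90.5% (89.8 to 91.1). Limited to 5 to 20 reads, the shares were 53.4% against 78.6% from replicate 1 and 76.8% against 84.8% from replicate 2. Within 5 to 20 reads, the intervals of members (50.4 to 56.3 and 73.1 to 80.3) lay below those of annotated models (77.3 to 79.9 and 83.7 to 85.9). Replicate 1 is the deeper library, and the part of depth in the difference between directions was not tested. The 3′ end was the same base in 31.6% and 44.7% of members, and both ends were the same in 6.44% and 7.88%.

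Many member ends lay on annotated edges. The 3′ end was the edge of an annotated exon in 809 of 1319 (61.3%) and 343 of 609 (56.3%) members, and the first base in 43.7% and 56.5%. As in Kcnk3 and Wbp1l, the 3′ end of 52 (3.89%) and 17 (2.73%) members was also the first base of another unspliced genomic model of the gene.

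Host genes numbered 1232 in replicate 1 and 579 in replicate 2, of which 285 were hosts in both. The shared genes made up 23.1% of the hosts of replicate 1 and 49.2% of those of replicate 2. Of the genes with at least 10 reads, 1085 of 7120 (15.2%) and 512 of 6590 (7.77%) hosted a member. In such hosts a median of 28.0% and 23.8% of the reads lay on members, and in 358 and 121 hosts members held at least 50% of them. These shares come from the counts that chose the members. Hosts with more reads had smaller shares, with medians of 9.04% and 7.69% at 50 or more reads per gene.

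The share of genes that hosted a member differed with the length of the last exon, which the rule did not use. With a longest last exon under 1000 nt, 6.67% of genes hosted a member in replicate 1 and 3.91% in replicate 2. From 1000 to under 2000 nt 268 of 1915 and 82 of 1904 genes were hosts, and from 2000 to under 4000 nt the shares were 22.4% and 8.61%. With 4000 nt or more, 35.4% (31.6 to 39.3) and 23.9% (20.8 to 27.2) of genes were hosts. The median reads of these genes were 47 in the shortest range and 24 in the longest in replicate 1, and 30 and 25 in replicate 2.

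**Figure D5:**
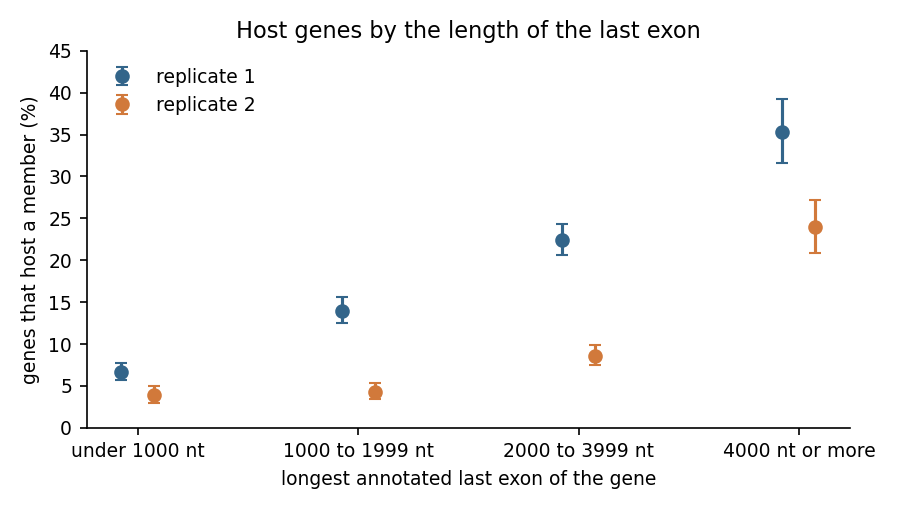
Share of genes with at least 10 reads that host a member (y axis, %) by the longest annotated last exon of the gene (x axis), with 95% Clopper-Pearson intervals. The share goes from 6.67% to 35.4% in replicate 1 and from 3.91% to 23.9% in replicate 2.

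The highest shares of a gene's reads, among genes with at least 50 reads, were 100% in replicate 1 for Gm20659, Tmem250-ps, Vil1, Adap2os and Gm26724. Vil1, the actin-bundling protein villin, had 56 of 56 reads on a member that ran 3568 nt past the gene and over an exon of Usp37 on the other strand. In replicate 2, Gml2 had 137 of 137 reads on a model that ended at base 74834587 of chromosome 15, the same base at which the Cyp11b1 members end on the other strand. The ubiquitin-conjugating enzyme gene Ube2h had 82 of 87 and 47 of 53 reads on members. Reads of Vil1 and Gml2 cannot be told apart by origin from those of Usp37 and Cyp11b1 on the other strand.

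Spliced reads of the host genes were counted apart from the reads that chose the members. With 1 library on each side there is no test, and a gene was called apart at a fold of at least 2 after TMM scaling. Of all 8761 genes with at least 10 spliced reads, 34.3% had more in replicate 2 and 38.5% more in replicate 1. Of the 1155 host genes among them, 494 (42.8%) had more in replicate 2 and 323 (28.0%) more in replicate 1. The median log2 ratio of replicate 2 over replicate 1 was 0.63 for host genes and -0.04 for all genes. Scaled by total reads, 53.9% and 21.7% of host genes were called, against 44.3% and 32.1% of all genes.

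Length moved with this difference. The mean length of annotated spliced models, weighted by reads, had a median of 3250 nt in host genes and 2643 nt in all genes. Under 1500 nt, 3.23% of host genes and 2.54% of all genes were higher in replicate 2, and from 1500 to under 2500 nt 15.7% and 9.94%. From 2500 to under 4000 nt the shares were 57.6% and 55.7%, and at 4000 nt or more 57.8% and 59.8%. Higher in replicate 1 were 85.5% of host genes and 92.1% of all genes under 1500 nt, and 49.3% and 53.4% in the next range. In the longer ranges these shares were 12.7% and 13.8%, then 13.3% and 12.4%. Within the 2 longer ranges, host genes and all genes were thus close, while across lengths the libraries differed far more than hosts did from other genes.

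Among the host genes furthest apart, Cavin1, a coat protein of caveolae, had 1 spliced read in replicate 1 and 280 in replicate 2, a fold of 229 (95% interval 40.8 to 9078), beside 16 and 21 member reads. Wbp1l had 3 and 518 spliced reads (fold 141, 48.1 to 687) and 26 and 0 member reads. Prickle1, Bdkrb2 and Rdh13 had no spliced read in replicate 1 and 47, 43 and 30 in replicate 2, at least 12.8-, 11.7- and 8.18-fold higher with 3 reads in place of 0. The exact intervals, which also cover counting error of the other library, reach down to 10.02, 9.13 and 6.25. In the other direction, Gadd45g and Arf6 had 81 and 74 spliced reads in replicate 1 and none in replicate 2, at least 33.0- and 30.2-fold higher on the same floor, with exact intervals that reach down to 26.2 and 23.9. Sarnp had 126 and 1 (fold 154, 27.1 to 6132). The ribosomal protein genes Rps9 and Rpl41 had 1238 and 23 and 2826 and 54, folds of 65.8 (43.6 to 104) and 64.0 (48.9 to 85.4).

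Genes of steroid synthesis held members in both libraries. Of 13 list genes with at least 10 reads in replicate 1 and 11 in replicate 2, 8 hosted a member in each library, beside 15.2% and 7.77% of all such genes. They were the same 8 genes, Akr1b7, Cyp11a1, Cyp11b1, Cyp21a1, Fdx1, Fdxr, Hsd3b1 and Star. A member needs a fixed minimum of reads, which a gene with many reads can reach with a small share of them. All genes with at least 10 reads had a median of 34 reads in replicate 1 and 31 in replicate 2. Fdx1 had 671 and 158 reads, and Cyp21a1 25459 and 14024. The comparison with all genes was thus not matched for reads per gene, and an enrichment of this list was not tested. Members held 1.80% and 2.30% of the 69269 and 55348 reads of this list, beside 2.97% and 1.42% of all reads of the libraries. The Hsd3b1 model of 3 nt gave 600 of 1244 and 696 of 1273 of these member reads. Cyp21a1, the 21-hydroxylase, had 179 of 25459 reads in replicate 1 and 29 of 14024 in replicate 2 on last exon members. Cyp11b1 had 212 of 11278 reads in replicate 1 on a last exon member. In replicate 2 it had 75 of 18259 on members, 52 on a last exon model and 23 on an exon and intron model.

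Of the steroid cell regulators 4 of 14 hosted a member in replicate 1 and 1 of 12 in replicate 2. Nr5a1, the transcription factor SF-1 that drives steroid enzyme genes, had 29 of 244 and 25 of 1104 reads on exon and intron members with first bases 1 nt apart. Of the cholesterol supply genes 5 of 14 and 3 of 18 were hosts. Soat1, which esterifies cholesterol for storage, had 81 of 329 and 40 of 574 reads on last exon members with the same end. Scarb1, the receptor for high-density lipoprotein, had 51 of 1548 and 17 of 4304, Apoe 31 of 2811 and 10 of 117, and Insig1, which holds back sterol synthesis, 29 of 60 and 0 of 125.

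Of the chromaffin genes 6 of 16 and 3 of 12 were hosts, with 1.47% and 0.477% of the list's reads on members. Scg2, a granin of secretory granules, had 50 of 1634 and 0 of 821 reads on members, and Cyb561, the electron carrier of those granules, 23 of 210 and 0 of 706. Among a list of potassium and calcium channels and ion pumps, 4 of 7 and 3 of 10 genes were hosts, with the calcium channel genes Cacna1d and Cacna1h among the 4. Members held 443 of 697 reads (63.6%) and 207 of 591 (35.0%), of which Kcnk3 gave 411 and 189. Of the SR and hnRNP splicing factors 5 of 27 and 6 of 27 were hosts, and Son, a nuclear speckle protein, had 10 of 343 and 18 of 49 reads on members.

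Of the immediate early and stress genes 2 of 10 and 1 of 11 were hosts, and of the nuclear long noncoding RNAs 2 of 6 and 0 of 4. Genes whose symbol starts as that of a ribosomal protein take in a few others, such as kinases of ribosomal protein S6. Of these genes 3 of 90 and 6 of 78 hosted members. Members held 24 of their 53746 reads (0.0447%) in replicate 1 and 33 of 3132 (1.05%) in replicate 2, so the reads of the list differed far more than the member reads. No gene of the mitochondrial genome hosted a member, among 11 and 2 genes with at least 10 reads and 1210 and 55 reads in all. Of the markers of endothelium 1 of 7 and 0 of 7 were hosts, of capsule and fibroblasts 0 of 6 and 1 of 6. Macrophage, erythroid and adipocyte markers had no member in either library, with 1121 and 203, 1479 and 132, and 115 and 24 reads. Genes with at least 10 reads numbered 7 and 5, 4 and 3, and 4 and 1 in these lists. Over all such genes 15.2% and 7.77% were hosts. With so few genes per list, the absence of a host is no result about a cell type.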

How the data were processed

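Reads of each library were assigned to transcript models by TALON, per the attribute names of the deposited annotation, on mm10 with GENCODE M21, per the accompanying sample notes. The deposited values are raw counts of reads per model, per the file headers, and models without reads are not listed. Other deposited values are exon numbers, model lengths and coordinates, per the file headers. The aligner, versions, cDNA preparation and strand handling were not given in the sources used here. Members, gene lists and rules were chosen with earlier results of these data known.

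Position was set from the annotated transcripts of the gene in the matching annotation, with a tolerance of 10 nt, in this order: beyond the gene end, before its start, single-exon gene, last exon, intron only, other exon, exon and intron. Of 834672 annotated exons, 834362 were identical in GENCODE M21, so bases were read from its transcript sequences wherever an exon covered them. That way of reading bases was chosen after seeing the files, because the design asked for a genome, and intergenic models could not be read. Shares carry exact 95% Clopper-Pearson intervals, and depth was 810239 and 587861 reads. Spliced reads were scaled by TMM (edgeR 4.0.16) with a pseudocount of 0.5 reads, and folds of named genes carry the interval of an exact binomial share. Positions and folds were tested on simulated data. The simulated folds changed few genes, equally in both directions. In the libraries, 34.3% of genes were called higher in replicate 2 and 38.5% in replicate 1. TMM scaling under so broad a difference was thus not tested.

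Named were the 10 members with most reads per library, the 5 with most reads per class, the 10 host genes with the highest member share among genes with at least 50 reads, list genes with a member of at least 20 reads, the 10 loci with most reads in both libraries and the 5 host genes furthest apart in each direction. Akr1b7, Cyp11a1, Fdxr, Cacna1d and Cacna1h were named after their values were seen, and a few items that the rule names are not reported here. Alternatives changed the count minimum, tolerance, transcripts used, weighting, match between libraries, A-rich rule, scaling and read minimum. The 15 gene lists are those described in the results.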

Additional observations from a re-analysis of the deposited data

How the results depend on the processing

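The count minimum set the number of members: at least 3 reads gave 3976 models and at least 10 gave 730, against 1968. With only annotated transcripts that had reads, last exon members held 50.3% of member reads on average, those past the gene end 11.5% and those in introns 1.69%; with each model counted once, last exon members made up 57.6%. Members found again fell from a mean of 67.4% to 44.9% where the shared stretch had to cover 50% of both models, 49.3% with 3′ ends within 50 nt, and 33.7% with at least 5 reads. A-rich ends went from 29.7% of members to 24.4% with 6 A in a row and 23.8% with at least 14 A, and from 31.4% of last exon members ending elsewhere to 24.1% and 23.7%. With at least 50 spliced reads, 307 of 749 host genes (41.0%) were higher in replicate 2, against 494 of 1155 (42.8%), so the count moved with the number of genes tested. The median share of a host gene's reads on members was 8.37% at 50 or more reads and 30.6% with no minimum, against 25.9%. The other 45 of 61 alternatives moved a value by less than the SD between libraries, or a count by less than 1.5 times. These include leaving out each replicate, which with 2 libraries moves a mean by less than the SD whatever the values. Those alternatives could not fall outside the limit, so they say nothing about stability.

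Leaving out each replicate leaves the value of the other library, from 60.3% to 66.8% for the last exon, 13.9% to 28.7% for exon and intron, 2.90% to 7.06% for introns, 5.44% to 8.10% past the gene end, 55.6% to 79.1% found again, 26.6% to 32.8% and 29.7% to 33.1% A-rich, and 23.8% to 28.0% of a host gene's reads. No paired analysis was possible because there is 1 group. The depth limits loci of few reads: a model with 5 reads can be missed in the other library by counting error alone.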
